A study of Mus musculus with 140 samples.

Results

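Mouse embryonic stem cells carrying a short hairpin RNA (shRNA) against the transcript that the labels call Mm343880 were followed from day 0 to day 6 and set against cells carrying the empty vector on the same days. The samples of the course were taken by their titles, but the course itself was chosen with earlier results of these data known. It held 7 of the 70 RNA samples of the series, measured on 14 of its 140 arrays, and each of its 7 days had an empty vector sample of the same day. The cells were CCE, an embryonic stem cell line of 129/Sv male origin per the labels. In both courses they stayed in leukaemia inhibitory factor (LIF, 1000 units per ml), and the empty vector (H1P) carried no hairpin. Day 0 was 48 hours after transduction. On every day the cells that were positive for green fluorescent protein (GFP), which marked transduction, were sorted, and their RNA was measured on the MOE430A array and on the MOE430B array, which carry different probe sets. The series knocked down Mm343880 among several candidate regulators of self-renewal. The other courses targeted Nanog, Oct4, Sox2, Esrrb, Tbx3 and Tcl1, or used retinoic acid (5 uM, without LIF), which drives differentiation.

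Embryonic stem cells in LIF hold a network of transcription factors (Oct4, Sox2, Nanog, Esrrb, Klf4, Prdm14 and others) that keeps them dividing without differentiation. When the network fails, genes of other lineages can come on: keratins of trophectoderm and other epithelia, or actins, calponins and transgelin of contractile cells. Many of the latter are targets of serum response factor (SRF), which binds a short sequence called the CArG box and works with cofactors that sense the actin cytoskeleton.

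There was 1 RNA sample per course and day and no repeated transduction, so no single day could be tested. Tests were made over phases of the course: early (days 0 and 1), middle (days 2 and 3) and late (days 4, 5 and 6). A gene was called when its limma difference between the fitted curves of the 2 courses, Mm343880 shRNA minus empty vector, had a Benjamini-Hochberg adjusted p below 0.05 over all 14749 genes tested. The p-values measure the scatter of days around smooth curves, which may be technical. Values are array signals, and differences are on a log2(signal + pseudocount) scale, which understates the change of dim genes. A rise or fall given as a log2 or fold difference is one against the empty vector, which itself moved over the days. In RNA from a mixed sample, fewer cells of a type and less RNA per cell cannot be told apart. Array medians lay between 244 and 305 in the knockdown course and between 244 and 331 in the empty vector course on the A arrays, and between 74.9 and 105 against 80.9 and 106 on the B arrays. Stem cell markers were bright in both courses: the median signal of Pou5f1, which encodes Oct4, was 17300 under the shRNA and 16000 with empty vector. No value for the hairpin's own target is given, because the probe annotation used here does not name it; its knockdown is not analysed here.

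Day by day, the number of genes at least 2-fold from the empty vector rose at day 3. It was 1079 on day 0 (7.32% of genes), 1119 on day 1 (7.59%) and 1022 on day 2 (6.93%), then 1845 on day 3 (12.5%), 1508 on day 4 (10.2%), 1899 on day 5 (12.9%) and 1852 on day 6 (12.6%). Days 0 to 2 lay inside the range of 807 to 1499 genes by which the empty vector course moved from 1 day to the next. Days 3, 5 and 6 lay above it, and day 4 only just. The Mm343880 course itself moved by 897 to 1743 genes from 1 day to the next, a range that holds day 4. On day 6 the other 6 knockdown courses were between 1716 and 2965 genes from the same empty vector sample, so the Mm343880 course sat near the low end. By this count day 6 was close to days 3 and 5, but the direction differed: 659 genes were higher and 1193 lower, against 1143 and 756 on day 5 and 1326 and 519 on day 3. The split depended on scaling. With quantile normalisation it became 883 higher and 851 lower on day 3, 946 and 989 on day 5, and 842 and 913 on day 6, while day 0 went from 343 and 736 to 480 and 451. The median difference over all genes was -0.12 on day 0, 0.11 on day 3 and -0.084 on day 6.

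**Figure D1:**
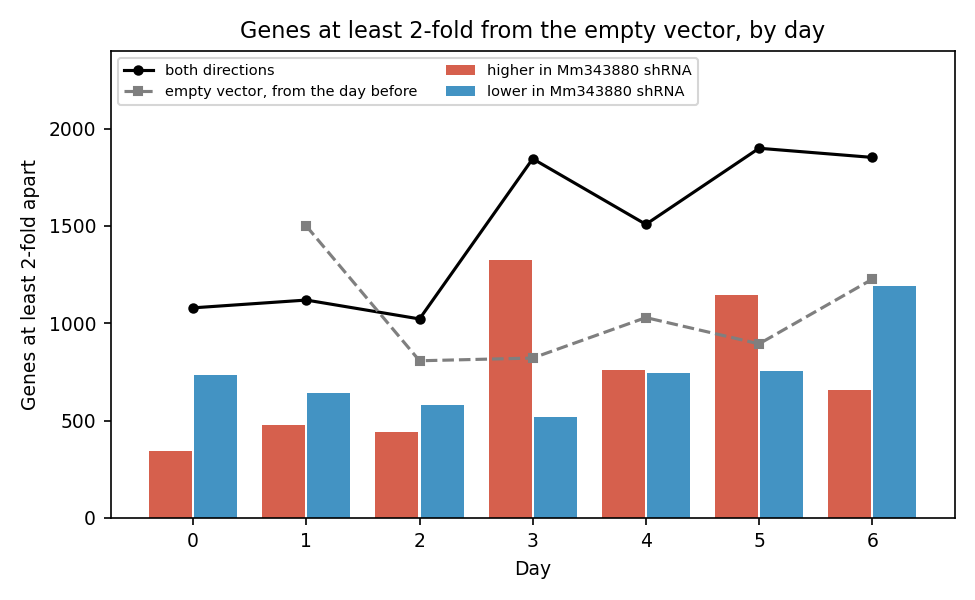
Genes at least 2-fold higher (red bars) or lower (blue bars) in the Mm343880 shRNA sample than in the empty vector sample of each day, their sum (black), and genes at least 2-fold apart between each empty vector sample and that of the day before (grey). The sum stepped up from 1022 on day 2 to 1845 on day 3 and was 1852 on day 6.

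The daily profiles shared part of their pattern, most in some pairs of days from day 3 on. Across the 14749 genes, which are not independent, Pearson's r between the differences of day 5 and day 6 was 0.34, between day 3 and day 5 0.36 and between day 4 and day 6 0.20. It was 0.075 between day 0 and day 1 and 0.035 between day 0 and day 6. Other pairs with an early day were about as high as days 4 and 6. These were days 0 and 2 (0.19), days 1 and 2 (0.17) and days 1 and 3 (0.22). Each of these days came from its own pair of samples.

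In the fitted phases the number of genes called went from 95 early to 2062 late. These counts also depend on precision, since the early phase averaged 2 days and the late phase 3. Hprt, for one, differed more early (-1.66, adjusted p = 1.6e-07 over all probe sets) than late (-1.43, adjusted p = 4.3e-09). A gene called only late may thus have differed earlier without passing. Early, 35 genes were higher (0.237% of genes) and 60 lower (0.407%). In the middle phase 439 were higher (2.98%) and 192 lower (1.3%), and late 1053 were higher (7.14%) and 1009 lower (6.84%). Of the late calls, 781 higher and 879 lower genes had been called in neither earlier phase. The largest effects were rises: 342 genes were at least 2-fold higher late and 32 at least 4-fold, whereas on this scale 206 were at least 2-fold lower and none reached 4-fold. By mean late signal, without the pseudocount, some dim genes lay further below the empty vector, such as Tesc (31.7 against 340), Msc (85.5 against 521) and Paqr6 (23.1 against 170). Paqr6 did not fall under the shRNA, where its early mean was 18. Its empty vector mean went from 46.8 early to 170 late. The direct test of change, late minus early beyond the same change in the empty vector, called 120 genes that moved up (0.814%) and 39 that moved down (0.264%). With quantile normalisation these became 71 and 51, and the middle calls 242 and 242. The changing genes numbered 36 without day 0, 68 without day 1, 105 without day 2, 73 without day 5 and 98 without day 6 in both courses, and 276 without day 4. The early genes numbered 4 without day 0 and 12 without day 1. The middle phase rested on day 3: without that day in both courses 34 genes were called (369 without day 1), without the Mm343880 day 3 sample alone 115 and without the empty vector day 3 sample alone 197. The single-sample settings were added after the data were seen.

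Contractile genes gave the largest rises of the course. The signal of Tagln, which encodes the actin-binding protein transgelin, was 410, 290, 781, 2980, 4580, 15800 and 15800 from day 0 to day 6 under the shRNA, and 290, 262, 509, 734, 699, 760 and 792 with empty vector. The courses lay close until day 2 and did not overlap from day 3 on. Its late mean was 12000 ± 6460 (SD, n = 3 days) against 750 ± 47.4, a 13.7-fold difference by the fit (log2 3.78, SE 0.403, adjusted p = 4.8e-09). Its early difference of 0.31 and middle difference of 1.11 did not pass (adjusted p = 0.89 and 0.18).

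Cnn1, encoding the smooth muscle calponin, read 52.2, 61, 68.3, 316, 617, 1790 and 1640 under the shRNA and 32.6, 50, 60.1, 145, 66.5, 72.9 and 42.4 with empty vector. It was dim in both courses until day 2, and the separation opened on day 4. The late difference was 10.3-fold (log2 3.36, SE 0.323, adjusted p = 6.2e-10). Acta1, the skeletal muscle actin, rose from 127 on day 0 to 8980 on day 5 and 6730 on day 6, against a range of 53.7 to 473 with empty vector (late 12.6-fold, adjusted p = 2.5e-09). Acta2, the smooth muscle actin, went 1150, 1640, 2170, 7960, 9990, 21900 and 20600, against 795, 1040, 1420, 1590, 1880, 1860 and 1510. Acta2 was above the empty vector on each of the 7 days, with the gap widening most on day 3. Acta1 and Acta2 already passed in the middle phase (adjusted p = 0.0085 and 0.0078), and Acta2 was 9.81-fold higher late (adjusted p = 7.5e-11). A second probe set for Acta2 near the floor of the array (16.9 late under the shRNA, 68.6 with empty vector) fell instead.

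**Figure D2:**
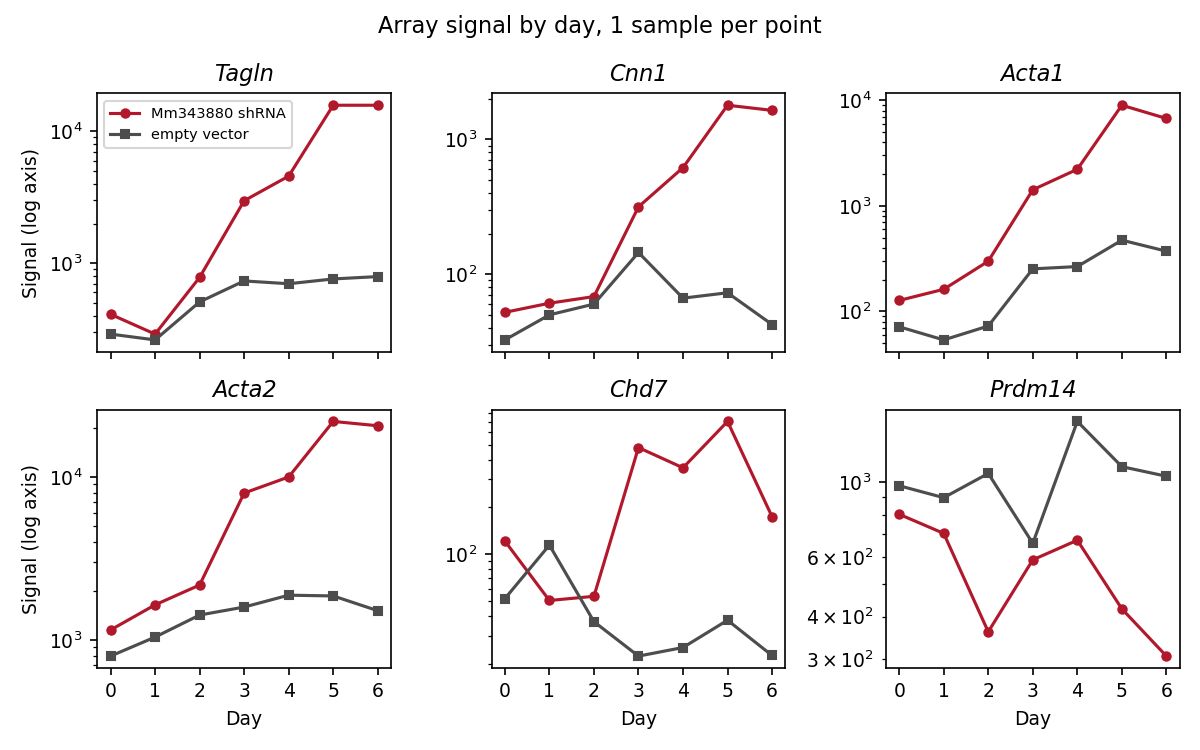
Array signal on a log axis by day for Tagln, Cnn1, Acta1, Acta2, Chd7 and Prdm14 in Mm343880 shRNA cells (red circles) and empty vector cells (grey squares), 1 sample per point. The gap of the 4 contractile genes widened at day 3 or 4, and their signals were highest on days 5 and 6, while Chd7 fell from 702 on day 5 to 173 on day 6.

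Of 27 measured genes of the contractile and SRF list, 17 were called higher late and none lower, against 7.14% of all genes called higher. The list was chosen with earlier results of these data known and holds the markers Tagln and Cnn1, so its count is a description. The list's median late difference was 1.2, against -0.015 for all genes. Its median by day was -0.014, -0.025, 0.093, 0.34, 0.46, 1.4 and 1.4, with its largest step from day 4 to day 5. The summed signal of the list ran from 19300 to 108000 under the shRNA and from 18800 to 23800 with empty vector. Cytoskeletal members such as Cald1 (caldesmon, 2.29), Cnn2 (2.04), Myl9 (a myosin light chain, 1.95) and Tpm2 (a tropomyosin, 1.84) rose with Acta1 and Acta2, and so did Ccn1 and Ccn2 (1.68 and 1.70), which encode secreted matricellular proteins. Other contractile members did not pass: Actg2 (0.38, adjusted p = 0.25), Lmod1 (0.36, adjusted p = 0.57), Smtn (0.20, adjusted p = 0.43) and Des (-0.28, adjusted p = 0.7). Srf itself (0.04, adjusted p = 0.92) and its cofactors Mrtfa (0.02) and Mrtfb (0.18) did not pass. Without day 6 in both courses 16 members were called higher, and without day 5 13 were. The counts of list members without day 5, here and for the other lists, were added after the data were seen.

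Because these genes moved together, the CArG box was looked for in the RefSeq promoters of build GRCm38.p6, a window from 250 bases before to 50 bases after each start. The motif was searched only in its strict form: CC, then A or T alone, then GG, 10 bases in all. It is its own reverse complement, so 1 search covered both strands. It was found in 1.63% of all 32851 promoters in the table. Of the 17 contractile list genes called higher late, 15 had a promoter entry and 7 of those held the motif, against 1 of 8 among the other list members (Srf). Among all genes with an entry the share was 3.18% of those called higher late (27 of 848), 1.21% of those called lower (10 of 828) and 1.48% of those tested (175 of 11841). The 27 include the 7 contractile list genes just counted, so the 2 shares are not separate observations. The members of the list are known for this motif, and a match is a description of the letters only. The promoters of Acta1, Cnn2 and Myl9 are shown as members that rose and held a match, in capitals; the match began 73, 56 and 161 bases before the start. Cnn1 and Acta2 held no strict match in this window, and looser forms of the motif were not searched.
Acta1 promoter, chr8:123894726-123895025, - strand: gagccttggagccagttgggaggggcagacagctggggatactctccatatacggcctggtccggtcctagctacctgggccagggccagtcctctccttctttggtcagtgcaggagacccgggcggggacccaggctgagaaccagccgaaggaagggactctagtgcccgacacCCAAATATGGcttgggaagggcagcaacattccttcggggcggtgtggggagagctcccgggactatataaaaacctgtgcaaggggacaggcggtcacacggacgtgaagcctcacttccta
Cnn2 promoter, chr10:79988350-79988649, + strand: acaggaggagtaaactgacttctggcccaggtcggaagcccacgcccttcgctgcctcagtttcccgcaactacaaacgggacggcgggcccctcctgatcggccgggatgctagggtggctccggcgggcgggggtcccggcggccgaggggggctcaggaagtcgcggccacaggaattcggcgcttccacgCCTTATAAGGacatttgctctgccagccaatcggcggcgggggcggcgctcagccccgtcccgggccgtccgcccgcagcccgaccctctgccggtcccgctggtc
Myl9 promoter, chr2:156775214-156775513, + strand: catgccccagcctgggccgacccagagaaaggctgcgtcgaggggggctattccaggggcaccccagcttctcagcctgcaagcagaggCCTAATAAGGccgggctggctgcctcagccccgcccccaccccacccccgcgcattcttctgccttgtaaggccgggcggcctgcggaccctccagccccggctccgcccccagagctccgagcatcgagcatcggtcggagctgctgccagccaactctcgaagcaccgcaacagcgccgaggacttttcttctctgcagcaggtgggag

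Epithelial keratins also rose. Krt18, a simple-epithelium keratin, read 481, 923, 896, 2800, 2850, 15000 and 13300 under the shRNA against 516, 504, 359, 504, 1270, 1020 and 2290 with empty vector. The knockdown course was above the empty vector from day 1 on, with its largest step from day 4 to day 5. It was 2.95-fold higher in the middle phase (adjusted p = 0.00038) and 6.26-fold higher late (adjusted p = 1.9e-10). Its partner Krt8 (late log2 2.40) and Krt7 (2.14) and Krt19 (2.72) also rose. Of 20 measured trophectoderm genes 9 were called higher and 1 lower (Hand1, -0.64), against 7.14% and 6.84% of all genes, and the list's median was 0.61. Of the transcription factors of that lineage, Gata3 (0.69, adjusted p = 0.16) and Ascl2 (-0.83, adjusted p = 0.092) did not pass. A dimmer probe set for Ascl2 did pass as lower (-1.38, adjusted p = 0.001 over all probe sets), and another did not (-0.67, adjusted p = 0.14). Eomes did not pass by the probe set used (0.53, adjusted p = 0.053), but a second, dimmer one did (1.01, adjusted p = 0.01 over all probe sets). Cdx2, which passed (1.28, adjusted p = 0.031), had a median signal of 61.4 under the shRNA and 84 with empty vector. Without day 6 the counts were 8 and 1, and without day 5 8 and 0.

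Markers of other cell types that a sorted culture could hold moved with these genes in part. Of 16 fibroblast markers, Col5a2 (0.80) and Col5a1 (0.74) rose, Fn1 (fibronectin, -0.52) fell, and the list's median was 0.42. Its summed signal ranged from 16600 to 24800 under the shRNA and from 15800 to 21000 with empty vector. Neither rise passed without day 6, nor did the fall. The other probe sets of Col5a2 (-0.02), Col5a1 (0.60 and 0.18) and Fn1 (0.16) did not pass. No member was listed at 0, and Col3a1, a defining fibroblast collagen, had a median signal of 94.5 against 78.7. That of Col1a1 was 234 against 134, whereas that of Thy1 was lower under the shRNA, at 292 against 400. Col6a1 (0.79, adjusted p = 0.091) and Col1a2 (0.775, adjusted p = 0.053) differed by about as much as Col5a1 but did not pass. The part of such cells in the contractile result was not tested.

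Other late rises by size were Anxa1 and Anxa3, which encode annexins (8.84- and 7.38-fold), Cryab, a small heat shock protein (8.9-fold), and Dusp5, a phosphatase of nuclear ERK (7.08-fold). Anxa1 went 356, 230, 396, 1150, 760, 5110 and 3170 under the shRNA and stayed between 177 and 318 with empty vector. Its signal was inside that range on day 1, just above it on days 0 and 2 and far above it on days 5 and 6. Prtg, encoding the neural receptor protogenin, reached 2910 on day 5 and was 1190 on day 6, against 82.9 to 362 with empty vector. AF067061 was the member whose rise lay most on day 6: 72.9, 168, 413, 651, 719, 1750 and 8380, against 39.4, 171, 63.6, 416, 52, 75 and 366. Its probe set is of a type that can pair with near-identical transcripts, so which copy was measured is uncertain. Without day 6 its late difference was 3.06 (adjusted p = 0.0018), against 3.56 with it.

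Chd7, encoding a chromatin remodeller of the CHD family, read 121, 50.5, 53.7, 478, 355, 702 and 173 under the shRNA and 51.9, 114, 37, 22.3, 25.3, 37.8 and 22.5 with empty vector. The courses overlapped until day 2, and all 4 later days were higher under the shRNA. The late difference was 8.92-fold (log2 3.16, SE 0.58, adjusted p = 0.00013). A second probe set for Chd7 gave 0.79 and did not pass (adjusted p = 0.14), so the size rests on 1 probe set. Of 24 measured genes for CHD and SWI/SNF remodellers 6 were called higher and 2 lower, against 7.14% and 6.84% of all genes, with a median of -0.019, close to that of all genes. Without day 6 these counts were 4 and 0, and without day 5 also 4 and 0. Chd1 (1.69) and Chd8 (0.72) were among the higher and Smarcd3 (-1.25) among the lower, and the other 3 probe sets of Chd1 lay between 0.18 and 0.43 and did not pass.

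Of the pluripotency genes, 12 of 30 measured were called lower late and none higher, against 6.84% of all genes called lower. The list's median by day was -0.2, -0.043, -0.14, -0.013, -0.14, -0.4 and -0.56, a late and modest fall. Prdm14, which encodes a repressor that keeps the naive state, read 803, 705, 361, 589, 673, 422 and 306 under the shRNA and 975, 899, 1060, 659, 1510, 1110 and 1040 with empty vector. It was below the empty vector on all 7 days, but by little on day 3, and the ranges of the 2 courses overlapped. Its late difference was -1.34 (2.54-fold lower, SE 0.287, adjusted p = 0.0009). Without day 6 it was -1.11 (adjusted p = 0.038).

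Nanog was 3640, 4080 and 4520 on days 4, 5 and 6 under the shRNA and 6640, 6750 and 6580 with empty vector (late -0.75, adjusted p = 0.00098), and it had passed in the middle phase too. Tcl1, a coactivator of Akt kinase, was 2090, 1360 and 1390 against 3080, 2970 and 3990 (-1.06, adjusted p = 0.00055). Esrrb, a nuclear receptor of the network, fell by 0.55 (adjusted p = 0.0018), and its other probe sets by 1.03 and 1.57. Klf2 (-1.33), Nr0b1 (-1.09), Fgf4 (-1.07), Zfp42 (-0.91) and Klf4 (-0.87) were lower as well. Pou5f1 was 17300 on day 0 and 15000 on day 6, against 17400 and 17600 (late -0.10, adjusted p = 0.78), and Sox2 (-0.36, adjusted p = 0.15), Tbx3 (-0.46, adjusted p = 0.29) and Dppa4 (-0.19, adjusted p = 0.21) did not pass. A second probe set for Tbx3 did (-0.60, adjusted p = 0.0079 over all probe sets). Without day 6 the list had 10 lower and 1 higher, and without day 5 7 lower. Kit, the stem cell factor receptor, was 369 on day 6 against 1440 and fell 2.68-fold late (adjusted p = 3.7e-06).

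**Figure D3:**
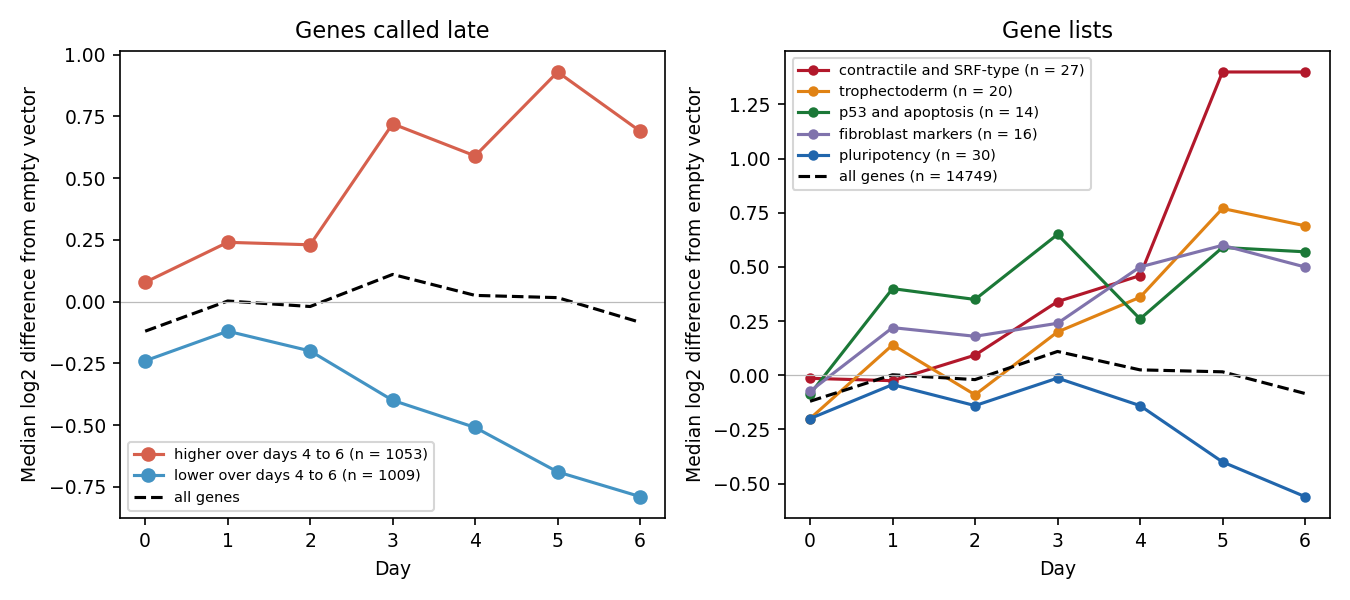
Median log2 difference from the empty vector by day (1 pair of samples per day) for the genes called higher or lower late (left) and for 5 gene lists (right), with all genes dashed. The genes called higher reached 0.72 on day 3 and 0.93 on day 5, and the contractile list went from 0.46 on day 4 to 1.4 on day 5.

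Smaller groups are read against the 7.14% of all genes called higher and the 6.84% called lower late. Of 14 genes of the p53 and apoptosis list 6 were called higher and 1 lower, with Plk2 (1.78) and Perp (1.31) largest. The counts were 4 and 0 without day 6, and 5 and 0 without day 5. Plk2 went down under the shRNA, from a mean of 3800 early to 2220 late, but further with empty vector (2380 to 628). Trp53inp1 did likewise (1360 to 1080, against 2060 to 572), whereas Perp went up (751 to 965, against 541 to 356). Mdm2 (0.34, adjusted p = 0.36) and Pmaip1 (0.43, adjusted p = 0.38) did not pass. Cdkn1a, the cell cycle inhibitor p21, was above the empty vector on each of the 7 days (late 1.07, adjusted p = 3e-06). Its lowest signal under the shRNA was 2910 and its highest with empty vector 2530. Of 16 genes of the Atf4 and amino acid stress list 5 were called lower and none higher. Trib3 was at -1.08 and Shmt2 at -0.90. Lower calls numbered 4 without day 6 and 5 without day 5. The empty vector climbed here, with the list's summed signal going from 49500 on day 0 to 74500 on day 6. Under the shRNA the sum went from 45800 to 50500.

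Of 23 mitotic and replication genes 2 rose and 5 fell. The largest of these changes was a rise, that of the proliferation marker Mki67 (1.32, adjusted p = 0.014), which did not pass without day 5 (0.98, adjusted p = 0.21). Mcm3 (-0.75) and Mcm6 (-0.65), subunits of the replicative helicase, were among the falls, and Mcm6 did not pass without day 6 (-0.34, adjusted p = 0.25). The list's counts were 1 and 3 without day 6 and 0 and 4 without day 5. In the primed epiblast list 3 of 12 rose: Cldn6 (1.29), Fgf5 (1.15) and the DNA methyltransferase Dnmt3b (0.94). Fgf5 did not pass without day 6 (adjusted p = 0.18), and 2 members were called higher without day 6 and 2 without day 5.

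Of 21 extraembryonic endoderm genes Sparc (1.75), Dab2 (0.80) and Col4a1 (0.78) rose and Apoe (-1.03) fell. The counts were 2 and 0 without day 6, and 1 and 1 without day 5. Dab2 passed neither without day 6 (adjusted p = 0.22) nor without day 5 (adjusted p = 0.12), Col4a1 did not pass without day 5 (adjusted p = 0.33) and Apoe did not without day 6 (adjusted p = 0.14). The other probe sets of Dab2 (-0.09, 0.35 and 0.905) and Col4a1 (0.12) did not pass late. Sparc, a secreted matrix protein, was high from the start by the probe set used: 5780 on day 0 against 2110 (early 1.23, adjusted p = 0.0093). Its other probe sets gave 0.64 and 0.0017 early, and neither passed. With day as a block its early difference no longer passed (adjusted p = 0.088). The interferon list had 3 of 13 higher, led by Psmb8 (1.94), and 1 lower, Oas2 (-1.34), with 2 and 1 without day 6 and 2 and 0 without day 5.

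The germ line list had Ddx4 (0.63) higher and Kit and Prdm14 lower among 12. The LIF and Stat3 list had Klf4 and Bcl3 (-0.72) lower among 14. The mesoderm, neuroectoderm and glycolysis lists each had 1 gene higher and 1 lower among 13, 10 and 18. Counts of 1 or 2 genes in lists of this size are close to the shares of all genes and give no result about the lists.

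Among the largest late falls, Inhbb, a subunit of activin B, went 1530, 1280, 698, 510, 448, 542 and 380 under the shRNA against 2480, 2200, 2030, 1690, 1650, 1980 and 1590. It was below the empty vector course throughout and the 2 ranges did not overlap. The late difference was 3.5-fold (log2 -1.81, adjusted p = 2.4e-08), although a second probe set gave -0.49 and did not pass (adjusted p = 0.49). Tesc, a calcium-binding protein, dropped from 293 on day 0 to 31.8 on day 2 and 31 on day 6, against 70.5 to 558. Camkv (a kinase-like vesicle protein, -1.80), Msc (the repressor musculin, -1.83) and Ampd3 (AMP deaminase, -1.79) were also among the 12 largest.

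Day 6 did not carry the late difference alone. With day 6 left out of both courses the fit called 1290 genes in place of 2062, and with day 5 left out it called 1165. The days differed in direction. Leaving out day 6 gave 788 higher and 502 lower genes, whereas leaving out day 5 gave 533 and 632. Without day 4 the count was 1668. Of the 1053 genes called higher, 703 (66.8%) were also called without day 6, and of the 1009 called lower, 453 (44.9%) were. By single samples, 1717 genes were called without the Mm343880 day 6 sample and 1515 without the empty vector day 6 sample. Of single samples, the Mm343880 sample of day 5 lowered the count most (1328 without it, a setting added after the data were seen); the count was 1823 without the empty vector day 5 sample. Each such fit also had fewer late samples than the full one.

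**Figure D4:**
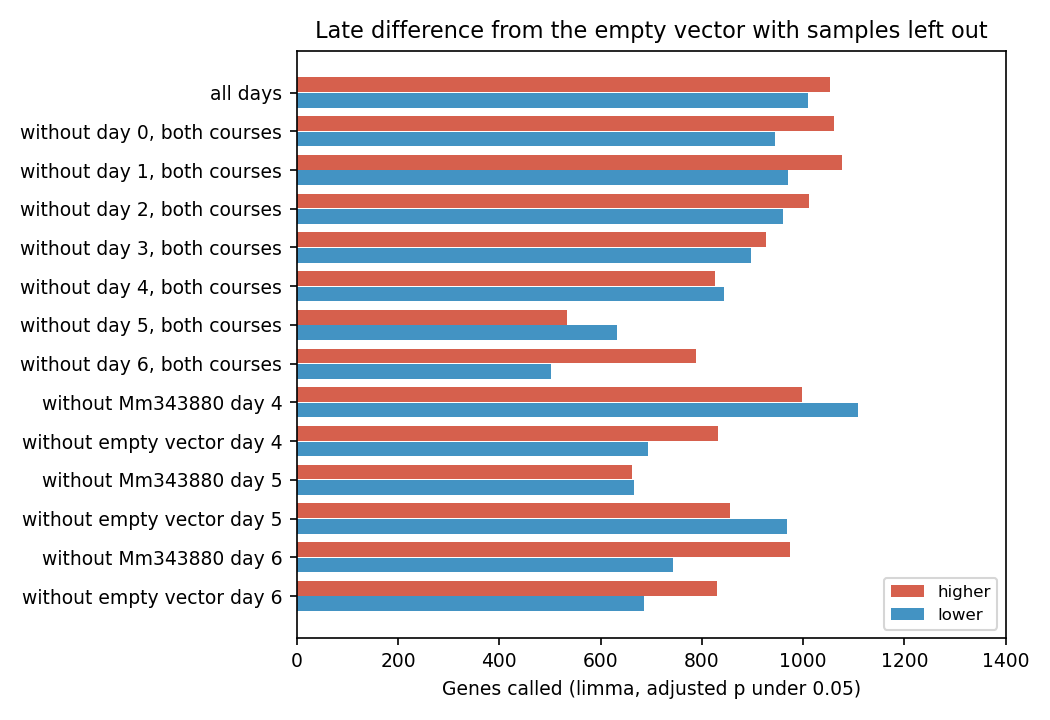
Genes called higher (red) and lower (blue) over the late days by limma at an adjusted p below 0.05, with all samples, with each day left out of both courses, and with single samples of days 4 to 6 left out. Lower calls were fewest without day 6 (502) and higher calls fewest without day 5 (533).

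Day 6 could also be read as a day the fit had not used. Of the 788 genes called higher from the fit without day 6, 692 (87.8%) were higher on day 6, where 43.7% of all genes were. Of the 502 called lower, 447 (89%) were lower on day 6, where 56.2% of all genes were. The differences of the former had a median of 0.56 on day 6 against 0.89 over days 4 and 5, and those of the latter -0.61 against -0.75. Both sets were called on days 4 and 5, a choice that favours larger values there, so these medians cannot compare the days. Among the late calls of the full fit, day 5 held the largest of the 3 late differences for 53.2% of higher genes and day 6 for 29.1%, while for lower genes day 6 held it for 49.2% and day 5 for 33%. Single-day differences on day 6 often stood alone: 342 of the 659 genes at least 2-fold higher on day 6, and 859 of the 1193 at least 2-fold lower, were 2-fold in that direction on neither day 4 nor day 5.

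Among the named genes, Tagln was 3.54 without day 6 and 3.51 without day 5, Cnn1 3.05 and 3.15, Chd7 3.67 and 2.96, and all of these passed. Krt18 depended more on day 5: 2.65 without day 6 and 1.96 without day 5. Of the 12 largest falls, Paqr6 (-1.41, adjusted p = 0.14), Serinc2 (-1.26, adjusted p = 0.16), 4930505O20Rik (-1.81, adjusted p = 0.057) and 2700012I20Rik (-1.73, adjusted p = 0.056) did not pass without day 6. Esrrb (-0.41, adjusted p = 0.09), Klf4 (-0.72, adjusted p = 0.072), Msc (-1.32, adjusted p = 0.12), Fgf4 (-0.86, adjusted p = 0.067), Ampd3 (-1.44, adjusted p = 0.053) and 2700012I20Rik (-1.77, adjusted p = 0.053) were among the genes that did not pass without day 5.

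A small set of genes differed from day 0. The 4 largest early rises that passed were Rnf185, 4930565D16Rik, Nceh1 and Dusp5, and the 4 largest early falls Zfp689, Slc29a2, Rims3 and Gata5os. With day as a block Rnf185 (adjusted p = 0.055), Nceh1 (0.15), Zfp689 (0.088) and Gata5os (0.12) no longer passed. Several of these were short-lived. Rnf185, a ubiquitin ligase, was 738 and 1110 on days 0 and 1 against 144 and 150, but 374 against 528 on day 6, and Slc29a2, a nucleoside transporter, was 12.4 and 16.9 against 186 and 137, but 62.3 against 58.2 on day 6. Nceh1, a cholesterol ester hydrolase, stayed higher: 354, 394, 338, 564, 210, 418 and 393, against 60.5, 104, 111, 54.4, 99.3, 41.4 and 169 (early 3.93-fold, adjusted p = 0.031). The early differences rest on 1 probe set for each of these genes that had several: the others gave early values of 0.19 for Rnf185, -0.12 for Slc29a2, 0.08 for Zfp689, 0.18 for Rims3 and -0.39 and 1.52 for Nceh1, and none passed.

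Genes called in all 3 phases numbered 18 higher and 21 lower. They were picked for these differences, so their levels are a description. Hprt, the purine salvage enzyme often used as a reference transcript, read 1990, 1670, 1430, 1660, 1880, 1780 and 1620 under the shRNA and 6440, 5330, 4590, 5140, 5010, 4730 and 4640 with empty vector. The 2 ranges were far apart on every day, and the difference was 3.15-fold early, 3.03-fold in the middle and 2.69-fold late. Ankrd13a, a ubiquitin-binding protein, ranged from 440 to 897 against 1380 to 1840, Gba2, a glucosylceramidase, from 143 to 262 against 444 to 580, and Zdhhc18, a palmitoyltransferase, from 506 to 902 against 1370 to 2320. None of these 4 ranges overlapped that of the empty vector. Ccnb1ip1, a ubiquitin ligase known from meiosis, and Fam98b, of the tRNA ligase complex, were lower on each day as well. Among the higher ones, Vamp3, a vesicle fusion protein, ranged from 2140 to 2990 against 942 to 1330, and Cttn, the actin-binding protein cortactin, from 4250 to 7840 against 2440 to 3640. The result for Cttn rests on 1 probe set: its 3 others gave 0.32, -0.17 and -0.23 late and did not pass. Of the 4 others of Vamp3, 2 passed late and none early. With the mean of all probe sets neither gene passed early (adjusted p = 0.58 for Cttn and 0.3 for Vamp3), and Cttn did not late (0.14). The early phase has 2 days in each course, and without day 0 only 4 genes were called early (Hprt, Ankrd13a, Zdhhc18 and Vamp3), and without day 1 12, Hprt, Ankrd13a and Zdhhc18 among them.

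**Figure D5:**
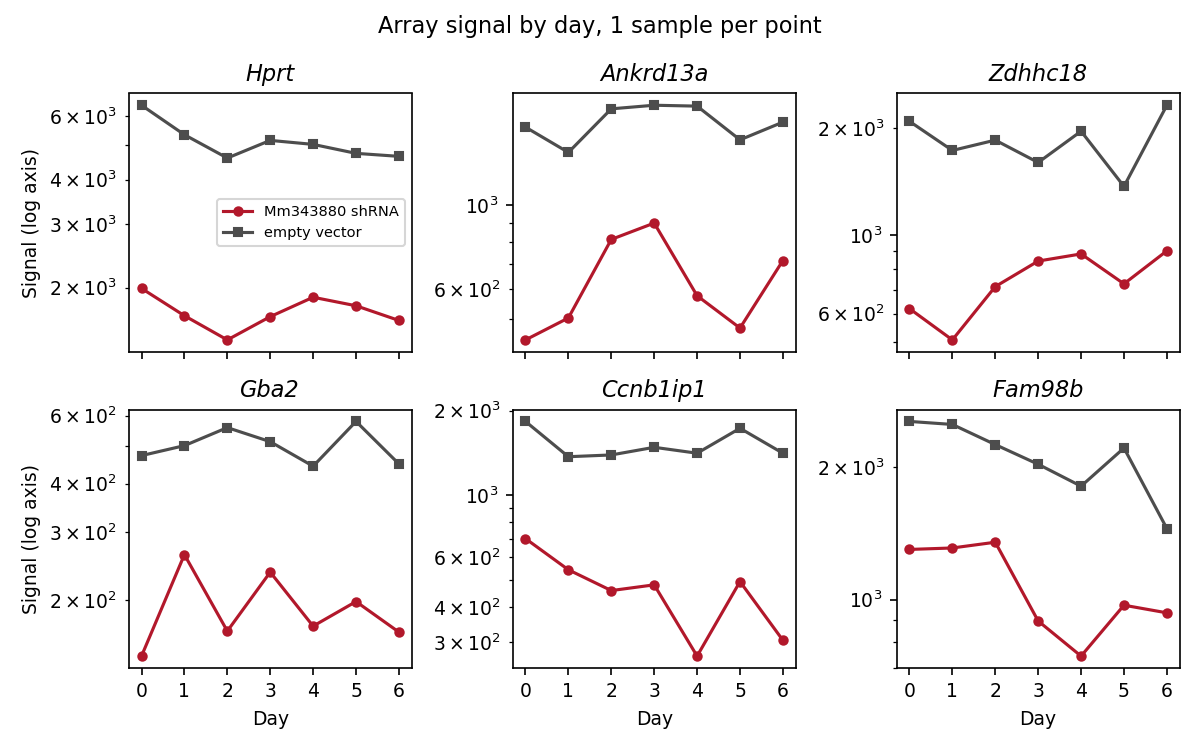
Array signal on a log axis by day for 6 genes called lower in all 3 phases, in Mm343880 shRNA cells (red circles) and empty vector cells (grey squares), 1 sample per point. Hprt stayed between 1430 and 1990 under the shRNA and between 4590 and 6440 with empty vector.

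The low level of Hprt was set beside the other courses. Its late mean was 1760 ± 130 (SD, n = 3 days) in the Mm343880 course, and 4790 ± 190 with empty vector. It was 4460 ± 549 in the Tcl1 course, 4770 ± 571 in the Tbx3 course, 4350 ± 525 for Esrrb and 4400 ± 506 for Nanog, and lower in the Sox2 (3350 ± 877), Oct4 (2750 ± 561) and retinoic acid courses (2140 ± 459). Those last courses had reached 5810 or more on another day, whereas 1990 was the highest value of Hprt in the Mm343880 course. Against the Tcl1 course the late difference was -1.35 (adjusted p = 2.9e-08) and against the Tbx3 course -1.41 (adjusted p = 6.6e-09).

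The Tcl1 and Tbx3 courses served to ask which late levels differed from another knockdown. Late, 468 genes were higher than in the Tcl1 course (3.17%) and 385 lower (2.61%), or 313 and 455 with quantile normalisation. Against the Tbx3 course 591 were higher (4.01%) and 594 lower (4.03%). Without day 4, 5 or 6 the count against Tcl1 was 459, 469 or 438 in place of 853, and without day 4 or 6 that against Tbx3 was 657 or 686 in place of 1185. None of the 27 contractile genes passed against Tcl1, where Tagln was 0.43 (adjusted p = 0.59) and Cnn1 0.84 (adjusted p = 0.12), which does not show that the courses were alike. Against Tbx3, 7 were higher and 1 lower (Fhl1), with Cnn1 at 1.69 (adjusted p = 0.00044) and Tagln at 1.58 (adjusted p = 0.0085). By late mean Tagln was 12000 under Mm343880 shRNA, 12500 ± 1920 for Sox2, 12000 ± 1720 for Esrrb and 7860 ± 2100 for Tcl1, and 2500 ± 564 for Oct4. The order of the highest of these did not exceed the spread between days. Chd7 did not pass against Tcl1 (0.96) or Tbx3 (-0.16). Prdm14 was lower than in the Tbx3 course (-1.09, adjusted p = 0.011) but did not pass against Tcl1 (-0.53, adjusted p = 0.3).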

How the data were processed

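The authors deposited MAS5 signals (a linear intensity per probe set, never negative, tool named in the submitters' processing notes) in a table for the A arrays and a table for the B arrays, 70 arrays each. In every array the 100 control probe sets common to the A and B designs had a 2% trimmed mean of 2500. Signals were used as log2(signal + pseudocount), with the 20th percentile of each table as pseudocount (63.1 for A, 21.8 for B). Probe sets above the table median (283.3, 89.2) on at least 3 arrays were kept (32992 of 45265). Probe sets naming 1 gene by the GEO platform annotation were ranked within their table on each array, and each gene (14749) was read from the one of highest average rank in percent, so a B probe set can stand for a gene that an A one reads brighter. Per table, limma 3.58.1 in R 4.3.3 (lmFit, eBayes with intensity trend) fitted all 70 samples with a separate curve over days per course (natural cubic spline, 3 degrees of freedom; 9 courses), leaving 34 residual degrees of freedom, and Benjamini-Hochberg adjustment ran over both tables. No sample was dropped or imputed. The script was tested on simulated data.

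The course, the 16 gene lists and the rule for named genes were chosen with earlier results of these data known. The rule takes the 4 markers, 7 regulators, the 12 largest late rises and falls, the 4 largest early and changing ones, and from each list up to 4 passing and 2 other members. Genes outside it, among them other list members named as examples, those called in all phases, Cnn2, Myl9, Fhl1, Srf and its cofactors, were chosen after their values were seen. Of 119 genes the rule names, 33 of 81 other probe sets gave a late fold that differed by over 1.5 times. Array number limits the precision. Alternatives were other pseudocounts, filters, normalisation, probe set rules, curves and samples. The hairpin's target is not analysed here.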

Additional observations from a re-analysis of the deposited data

Results flagged for a closer look

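Late levels in the Mm343880 course differed from the Tcl1 course at 853 genes and from the Tbx3 course at 1185 genes by the test of the difference itself, and the difference from the empty vector changed between early and late at 159 genes. These counts moved when samples or the curve were changed, as given under the processing.

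Of the genes taken by the naming rule, 6 differed from the empty vector and from both other knockdown courses in the same direction over the late days. AF067061 was higher than in the Tcl1 course by 2.80 and than in the Tbx3 course by 2.66 on the log2 scale. Chd8, a CHD remodeller, was higher by 0.727 and 0.792. Ccnb1ip1 was lower, at -1.36 and -1.71, as were the kinase-like Camkv at -1.02 and -1.36, the nuclear receptor Nr0b1 at -0.968 and -0.796, and Mcm3 at -0.609 and -0.765. Of the 18 higher and 21 lower genes called in all 3 phases, picked after their values were seen, 2 higher and 13 lower ones also passed against both, with Hprt, Ankrd13a, Gba2 and Fam98b among the lower. The 2 comparisons share the Mm343880 samples.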

How the results depend on the processing

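Of 135 named genes called late, 133 kept the call with a pseudocount of 1, 130 with quantile normalisation, 110 without day 6 and 106 without day 5. The 135 include genes outside the naming rule, such as those called in all 3 phases. Those were picked for their differences, so these shares do not describe late calls at large. None of the 135 reversed except Pgk1 (0.61), which gave -0.063 (adjusted p = 0.89) with the mean of all its probe sets. Leaving out each day in turn gave 4 to 108 early, 34 to 743 middle, 1165 to 2047 late and 36 to 276 changing genes, and 438 to 830 against Tcl1 and 657 to 1136 against Tbx3. The late count was 1290 without day 6 in both courses. Single samples, added after the data were seen, gave 1328 late genes without the Mm343880 day 5 sample, and 115 and 197 middle genes without the Mm343880 and the empty vector day 3 samples. A spline with 2 degrees of freedom gave 63 early and 98 changing genes. With no spline 20 early, 120 middle and 13 changing genes were called, 390 against Tcl1 and 706 against Tbx3. With day as a block, which pairs the courses by day, there were 42 early, 261 middle, 1771 late and 52 changing genes. With only the compared courses fitted there were 19 early, 254 middle and 45 changing genes and 363 against Tcl1. For genes at least 2-fold by day, a pseudocount of 1 gave 1780, 1843 and 1614 on days 0, 1 and 2. A pseudocount at the table median gave 246, 254, 240, 703, 454, 725 and 709 from day 0 to day 6, and averaging the empty vector over 3 days gave 653 on day 1. The cause of these moves was not tested. Dim probe sets limit the sizes given: Cnn1, Chd7 and Cryab had empty vector signals near the pseudocount.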

Other observations

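Genes chosen after their values were seen, outside the lists, gave further values. Gja1, the gap junction protein connexin 43, was 2520, 2480, 3390, 6070, 4390, 6970 and 7090 from day 0 to day 6 under the shRNA and 2100, 1970, 1630, 1810, 1550, 1820 and 1480 with empty vector. It was higher on each day and the ranges did not overlap (late log2 1.90, adjusted p = 7.5e-11). Lgals1, encoding galectin-1, stayed near the empty vector until day 2 and reached 31000 on day 5 against 5820 (late 1.87, adjusted p = 7.5e-11). Actg1, the cytoplasmic gamma actin, climbed from 20100 on day 0 to 42000 on day 6 against 18600 and 21900 (0.92, adjusted p = 2.3e-09). Gbp2, an interferon-inducible GTPase outside the interferon list, went from 65.2 to 993 against 162 and 72.5 (2.27, adjusted p = 2.3e-08).

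Khdc3, a maternal effect gene, crossed over. It was 4180, 4910 and 5460 on days 0, 1 and 2 against 2600, 2670 and 3260, and 3090, 2660 and 3210 on days 4, 5 and 6 against 4120, 4390 and 4290. The change over the course was -1.30 (adjusted p = 0.0075), while neither the early difference (0.77, adjusted p = 0.076) nor, without day 6, the late one passed. Alpl, the alkaline phosphatase used to stain stem cell colonies, was lower on each of the 7 days, from 872 against 1480 on day 0 to 733 against 1830 on day 6 (late -1.21, adjusted p = 2.4e-06).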
